A study of Homo sapiens with 6 samples.

Results

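The 72 genes described here encode heat shock proteins and their DNAJ co-chaperones. They were chosen by symbol alone: HSPA, HSPB, DNAJA, DNAJB and DNAJC genes with a number after the family letters, the HSP90 genes, HSPD1, HSPE1 and HSPH1. They make up 72 of the 22091 gene IDs in the count files. RNA sequencing was done on 3 human hepatocellular carcinoma lines, with 1 library per line and condition. The groups are MHCC97L, MHCC97H and HCCLM3 cells after 4 h with 2.5 ng/mL of TGF-β1, and the same 3 lines as controls at 4 h. All cells were kept in DMEM with serum, and no line carries a stated genetic change. The lines share an origin, since a common parental line gave rise to MHCC97L and MHCC97H, and HCCLM3 came from metastases of MHCC97H. Separate cultures for the libraries of 1 line are not stated in the labels. The 3 lines serve as replicates for TGF-β1. A p-value is set by how much they vary in response, and in part by how other genes vary, from which the fit borrows.

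Heat shock proteins keep other proteins folded. HSP70 and HSP90 proteins bind and release clients in cycles driven by ATP, J proteins (the DNAJ families) bring clients to HSP70 and start its ATP hydrolysis, HSP110 proteins exchange the nucleotide, and small heat shock proteins hold unfolded clients without ATP. Many cytosolic members are induced by the transcription factor HSF1 under heat or toxic stress, while the endoplasmic reticulum (ER) and mitochondria have members of their own. In liver cancer, raised levels of several of these proteins are a common observation.

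Total expected counts ranged from 21257080 to 23242862 in the TGF-β1 libraries and from 18485041 to 22854982 in the controls. Levels are given as CPM, counts scaled to a common library size after TMM normalization. The early TGF-β1 targets PMEPA1, JUNB, SMAD7 and SKIL were higher with the ligand in each line. The hepatocyte factor HNF4A and the keratins KRT8 and KRT18 were at 79.0 CPM or more in all libraries. GPC3 was at 0 and ALB reached only 22.9 CPM, so the liver cell markers were only partly present. They were not steady: with TGF-β1 HNF4A rose by 0.97 on the log2 scale, KRT8 by 0.29 and KRT18 by 0.26. APOB changed by -0.80. Their adjusted p-values were 0.000114, 0.0396, 0.0433 and 0.0188 by edgeR's quasi-likelihood test, and ALB, AFP and EPCAM did not pass. Of the 6 leukocyte markers, whose summed level was 119 to 268 CPM after TGF-β1 and 134 to 234 CPM in controls, PTPRC and CD3E did not exceed 0.13 CPM, CD68 made up most of the sum at 109 to 246 CPM, and CD79A reached 17.3 CPM. The 8 stellate cell and fibroblast markers summed to 7.44 to 21.3 CPM after TGF-β1 and to 2.39 to 17.9 CPM in controls, and ACTA2 and DES did not exceed 0.13 CPM. Of that list COL1A1, which encodes a collagen chain, was at 5.57 to 7.20 CPM after TGF-β1 and 0.30 to 0.48 CPM in controls (log2 3.93, adjusted p 5.6e-05 by edgeR's quasi-likelihood test), and COL3A1 was at 11.7 and 14.4 CPM in HCCLM3 (TGF-β1, then control). The 5 endothelial markers summed to 11.1 to 35.3 CPM and to 13.9 to 41.1 CPM. CDH5 did not exceed 0.35 CPM, KDR reached 10.5 CPM, and PECAM1 was at 5.91 to 24.0 CPM after TGF-β1 and 8.65 to 31.0 CPM in controls, with a change of -0.39 (adjusted p 0.0343 by edgeR's quasi-likelihood test). The part of these markers in the members' changes was not tested. In bulk RNA, fewer cells with a transcript and less of it per cell cannot be told apart.

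Members spanned a wide range of levels. Per kilobase of exon, averaged over the 6 libraries, 8 members stood at 100 CPM per kb or more. The length used joins all annotated exons of a gene, so it can exceed that of its main transcript and lower the value. It was 4849 bases for HSPA8 and 2980 for HSP90AB1, and HSPA8 had more counts than HSP90AB1 in each library. The order below therefore depends on this length. HSPB1, the small heat shock protein also called HSP27, was highest at 614 CPM per kb, ahead of the cytosolic HSP90 gene HSP90AB1 (494), the constitutive HSP70 gene HSPA8 (442) and HSP90AA1 (344). The mitochondrial chaperonin gene HSPD1, the ER HSP90 gene HSP90B1, the J protein gene DNAJA1 and the ER HSP70 gene HSPA5 followed, between 112 and 167 CPM per kb. DNAJC22 was the highest of the class C J proteins at 64 CPM per kb and DNAJB1 the highest of class B at 46.9 CPM per kb. At the other end 20 members were under 1 CPM per kb, and DNAJB8, HSPA1A and HSPB2 had 0 counts in all 6 libraries. Together the members held 1.18% to 1.21% of all counts after TGF-β1 and 1.11% to 1.17% in controls, ranges that did not overlap. The small heat shock proteins, mostly HSPB1, held 0.123% to 0.134% after TGF-β1 and 0.0824% to 0.107% in controls. Class B and class C J proteins also held more in each line after TGF-β1. HSP70 genes held less in each line (0.287% to 0.311%, against 0.308% to 0.320% in controls), and so did HSP110 genes. The other families went both ways. Sums weigh abundant members most and do not show how many members rose.

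Of the 72 members, 62 had enough counts to be tested. The other 10 were DNAJA4, DNAJB8, DNAJB13, DNAJC5B, DNAJC5G, DNAJC28, HSPA1A, HSPA1L, HSPA12B and HSPB2. The first question was which members changed with TGF-β1 across the 3 lines. A member was called at an adjusted p under 0.05 (edgeR's quasi-likelihood test, Benjamini-Hochberg over 14176 genes, with cell line as a term of the fit). By this rule 9 of 62 members were called, near the 14.4% of all genes tested that were. Of them 7 rose, where 7.78% of all genes did, and 2 fell, where 6.64% did. The count was 4 without MHCC97L, 5 without MHCC97H, 15 without HCCLM3 and 5 by DESeq2. That is 6.45%, 8.06%, 24.2% and 8.06% of the members tested, where 4.29%, 6.85%, 27.7% and 11.1% of all genes were called. The members' count thus moved with that of all genes. DNAJC22 alone was called when cell line was left out of the fit, where 0.0705% of all genes were. The median log2 fold change of the 62 was 0.03, against -0.003 for all genes, and the members ranged from -0.59 to 2.30. In all 3 lines 23 of the 62 were higher and 16 lower after TGF-β1, and 23 went both ways. This split was not counted over all genes, so it is not read as a shared response of the members. The split of calls over all genes depends on scaling: 54.0% of called genes were higher by TMM, 44.2% by upper quartiles and 37.1% by library totals. The members' split was 7 higher and 2 lower by TMM and 7 and 3 by either other scaling.

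**Figure D1:**
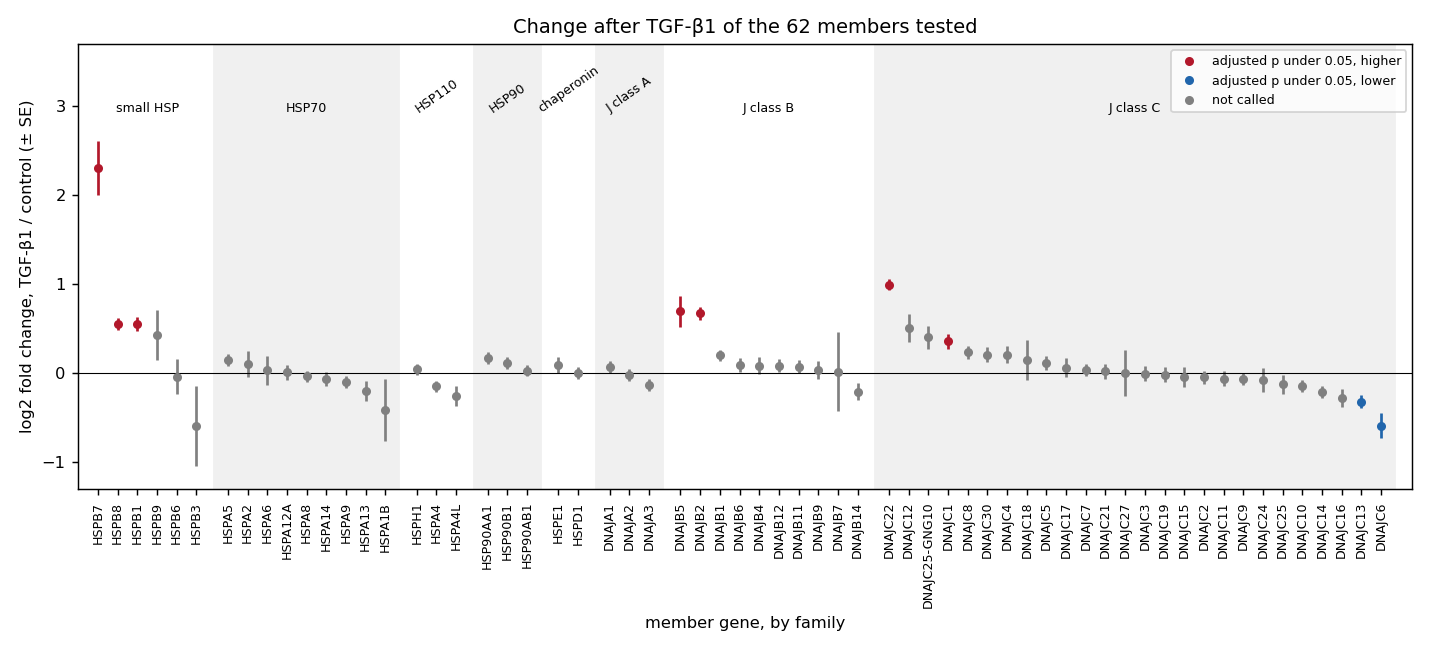
Log2 fold change after TGF-β1 (TGF-β1 over control, with SE) of the 62 members tested, grouped by family. Red points rose and blue points fell at an adjusted p under 0.05 by edgeR: 3 of 6 small heat shock proteins, 2 of 10 class B and 4 of 26 class C J proteins, and none of the 2 to 9 genes tested in each other family, where 14.4% of all genes were called. Families were not tested against each other.

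The small heat shock proteins HSPB1, HSPB7 and HSPB8 rose, 3 of the 6 tested, where 7.78% of all genes rose. HSPB1 binds unfolded proteins and actin filaments. Its level was 1170.3, 1177 and 1225 CPM after TGF-β1 in MHCC97L, MHCC97H and HCCLM3, against 752, 749 and 950.0 CPM in their controls. All TGF-β1 libraries lay above all controls, and HCCLM3 had the highest control. The log2 fold change was 0.55 (SE 0.076, n = 3 lines, adjusted p 0.00255 by edgeR's quasi-likelihood test). Without MHCC97L its adjusted p was 0.0565 by the same test, over a range of 3.57e-10 to 0.203 for all its alternatives.

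HSPB8, which works with BAG3 to send misfolded proteins to autophagy, was at 86.5, 82.9 and 142 CPM after TGF-β1 in MHCC97L, MHCC97H and HCCLM3, against 63.7, 55.6 and 91.0 CPM in controls. Each line was higher with the ligand, and the HCCLM3 control lay above the other lines' TGF-β1 libraries. It changed by 0.55 (SE 0.070, adjusted p 0.00162 by edgeR's quasi-likelihood test). HSPB7, a small heat shock protein known from heart muscle, had 21, 26 and 77 counts after TGF-β1 in the same order of lines, against 4, 5 and 14 in controls. That is 0.93, 1.12 and 3.73 CPM against 0.17, 0.24 and 0.74 CPM, with no overlap between the groups. Its change of 2.30 (SE 0.306, adjusted p 0.00206 by edgeR's quasi-likelihood test) was the largest among the members tested, at a low level. HSPB8 overlaps the non-coding genes AC084880.1 and AC084880.3. No source used here says whether counting used strand, so the values of HSPB7 and HSPB8 are uncertain.

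The other 3 small heat shock proteins tested among the members did not pass. CRYAB, a small heat shock protein outside the symbol rule, changed by 0.19 (SE 0.219) and did not pass either. HSPB6, known from muscle, changed by -0.04 (SE 0.193), the testis gene HSPB9 by 0.43 (SE 0.282) and HSPB3 by -0.59 (SE 0.449). HSPB9 and HSPB3 stayed under 2 CPM in every library, where counting error is large.

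The stretches before the start of these genes are shown because the members that rose together differ in the promoter letters they hold. Promoters came from RefSeq (GRCh38.p14), where 65 of 72 members matched, and the 250 bases before each start were searched on both strands. The heat shock element was taken as GAANNTTC or TTCNNGAA, whose matches may overlap, the CCAAT box as CCAAT, the TATA box as TATAAA and the AP-1 site as TGANTCA. Capitals mark the heat shock element in HSPB1 and HSPB8 and the TATA box in HSPB7, each written 5′ to 3′ on the gene's strand and ending at the base before the RefSeq start. HSPB1 is at chr7:76302483-76302672, plus strand, HSPB8 at chr12:119178821-119178930, plus strand and HSPB7 at chr1:16018044-16018103, minus strand.
HSPB1: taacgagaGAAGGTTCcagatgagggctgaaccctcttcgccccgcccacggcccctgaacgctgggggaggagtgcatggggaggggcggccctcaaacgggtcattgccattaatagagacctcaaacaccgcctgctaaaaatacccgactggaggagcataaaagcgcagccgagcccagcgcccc
HSPB8: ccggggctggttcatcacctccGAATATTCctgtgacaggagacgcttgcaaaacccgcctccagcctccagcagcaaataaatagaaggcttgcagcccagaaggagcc
HSPB7: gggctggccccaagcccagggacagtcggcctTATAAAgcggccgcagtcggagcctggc

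A heat shock element stood in 13 of the 65 member promoters (20%) and in 11.7% of all 27305 promoters in the table. Among heat-inducible cytosolic members it stood in 5 of 10, HSPA1A and HSPA1B among them. Of the 5 members in the table that rose, HSPB1 and HSPB8 held it and HSPB7, DNAJB2 and DNAJB5 did not. HSPA8, which held 4 matches in overlapping pairs, is shown for contrast, since it did not pass the test. It is at chr11:123062137-123062386, minus strand, with the element in capitals.
HSPA8: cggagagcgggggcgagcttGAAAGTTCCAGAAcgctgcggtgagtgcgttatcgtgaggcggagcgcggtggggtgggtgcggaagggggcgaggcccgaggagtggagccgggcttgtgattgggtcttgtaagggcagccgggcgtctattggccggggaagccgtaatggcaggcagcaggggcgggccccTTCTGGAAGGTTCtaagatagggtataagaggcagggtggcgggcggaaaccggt
A CCAAT box stood in 6 of the 7 ER members in the table and in 33.0% of all promoters. The AP-1 site stood in 0 of the 5 members that rose and in 6.60% of all promoters. A match is a string of letters, and binding was not measured.

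Of the 39 J proteins tested, 4 rose and 2 fell, near the 7.78% and 6.64% of all genes that did. DNAJC22, a membrane-spanning class C member whose Drosophila homologue wurst acts in endocytosis, stood at 447, 465 and 395 CPM after TGF-β1 in MHCC97L, MHCC97H and HCCLM3, against 219.6, 229 and 207 CPM in controls. The groups lay far apart. It rose 1.99-fold (log2 0.99, SE 0.063, adjusted p 5.9e-05 by edgeR's quasi-likelihood test), with the smallest p of all members, and passed under all 12 alternatives. Its counts were not whole in any library, and 1.31% of its transcript windows of 50 bases also occur in other genes, so part of its count may be estimated.

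DNAJB2, which carries ubiquitin-binding motifs and brings HSP70 clients to the proteasome, was at 55.3, 60.3 and 113 CPM after TGF-β1, against 35.8, 34.8 and 74.2 CPM in controls of MHCC97L, MHCC97H and HCCLM3. Each line was higher with the ligand, while HCCLM3 was above the other lines in either condition. It rose by 0.67 (SE 0.073, adjusted p 0.000754 by edgeR's quasi-likelihood test). DNAJB5, a cytosolic relative of DNAJB1, was at 3.20, 3.82 and 9.83 CPM against 2.48, 2.72 and 4.73 CPM, and rose by 0.70 (SE 0.178, adjusted p 0.0341 by the same test). By edgeR its adjusted p was 0.0645 when MHCC97L was left out, 0.0548 when MHCC97H was and 0.164 when HCCLM3 was. DESeq2 gave 0.178, and all alternatives spanned 0.0257 to 0.640. Within HCCLM3 it rose 2.06-fold, and its counting interval there did not reach 0.

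DNAJC1, an ER membrane J protein that works with HSPA5, was at 27.6, 24.1 and 28.3 CPM after TGF-β1 in MHCC97L, MHCC97H and HCCLM3, against 20.2, 19.8 and 22.4 CPM in controls. The groups did not overlap, and the change was 0.36 (SE 0.083, adjusted p 0.0238 by edgeR's quasi-likelihood test). Without MHCC97L its adjusted p was 0.287, without MHCC97H 0.0508, and by DESeq2 0.0752 (edgeR and other tools, 0.0114 to 0.287).

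Both members that fell are class C J proteins. DNAJC13, also called RME-8, which sorts cargo on endosomes, was at 62.4, 62.7 and 74.9 CPM after TGF-β1 in MHCC97L, MHCC97H and HCCLM3, against 79.1, 84.7 and 84.7 CPM in controls. All TGF-β1 libraries lay below all controls, and the gene fell by 0.32 on the log2 scale (SE 0.074, adjusted p 0.0243 by edgeR's quasi-likelihood test). DNAJC6, or auxilin, which uncoats clathrin vesicles together with HSPA8 and is best known from neurons, was at 5.11, 2.45 and 2.91 CPM against 7.57, 4.00 and 4.09 CPM. It fell in each line, by 0.59 on the log2 scale over the lines (SE 0.146, adjusted p 0.0307 by the same test). Both calls were lost without MHCC97L, with an adjusted p of 0.248 for DNAJC13 and 0.223 for DNAJC6 by edgeR, and without MHCC97H, with 0.115 and 0.119. Over all alternatives the range was 0.00124 to 0.310 for DNAJC13 and 0.0197 to 0.636 for DNAJC6, and DESeq2 gave 0.222 for DNAJC6.

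**Figure D2:**
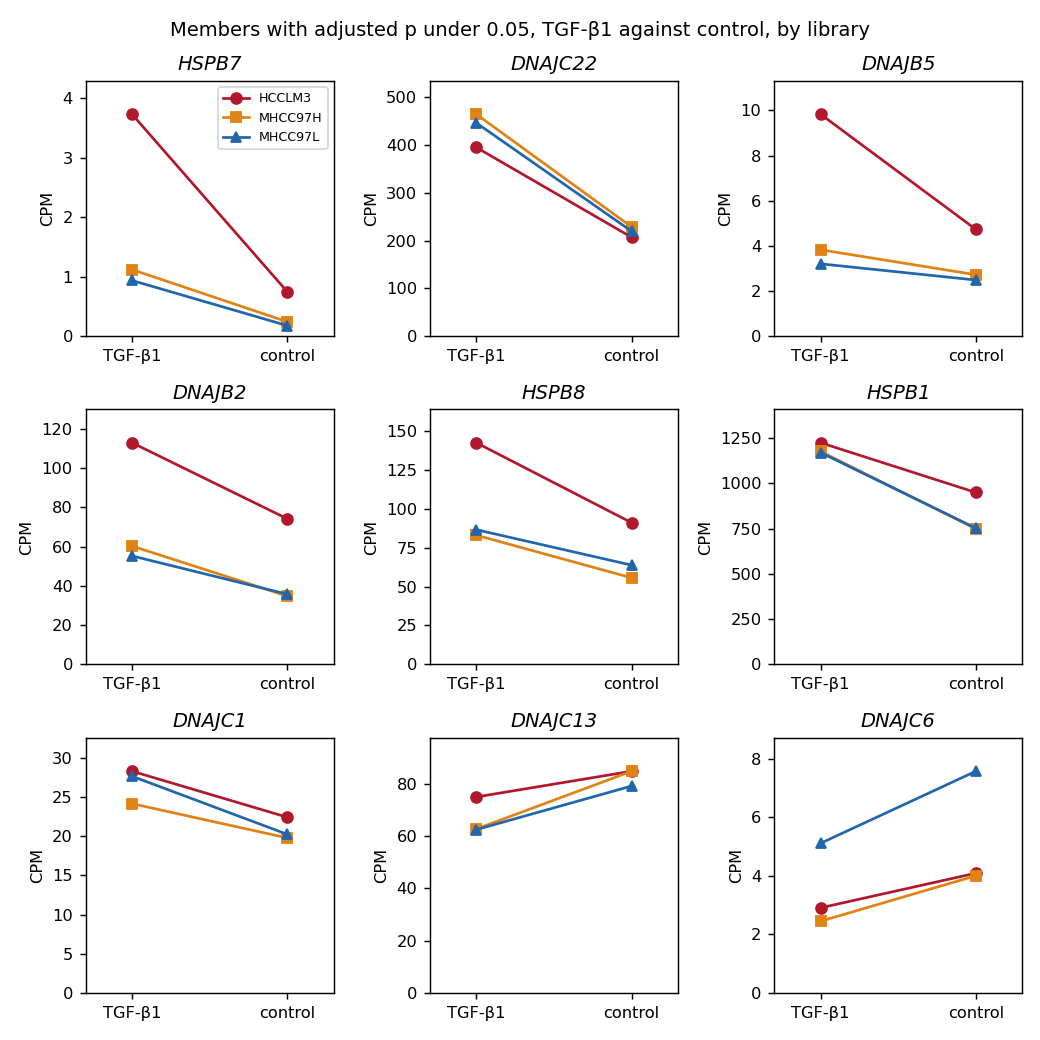
CPM of the 9 called members in each library, with TGF-β1 on the left and control on the right of each panel, and a line joining the libraries of 1 cell line. All 3 lines slope the same way in each panel; DNAJC22 went to between 395 and 465 CPM with TGF-β1, against 207 to 229 CPM in controls.

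Members were also counted, called or not, by whether their CPM overlapped between conditions. In 7 of the 62 all TGF-β1 libraries lay above all controls, where 8.78% of all genes did so: DNAJB12, DNAJC1, DNAJC8, DNAJC22, DNAJC30, HSPB1 and HSPB7. In another 7 they lay below, where 9.23% of all genes did so: DNAJB14, DNAJC10, DNAJC13, DNAJC14, DNAJC25, HSPA4 and HSPA4L. DNAJC10 is an ER disulfide reductase, and HSPA4 and HSPA4L are nucleotide exchange factors of the HSP110 family.

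The cytosolic genes HSPA8, HSP90AB1, HSP90AA1, HSPH1, DNAJA1 and DNAJB1 did not pass the test. HSPA8 was at 2188, 2005 and 2163 CPM after TGF-β1 in MHCC97L, MHCC97H and HCCLM3, against 2199, 2114 and 2181 CPM in controls, a change of -0.03 (SE 0.064). HSP90AB1 changed by 0.03 (SE 0.063), HSPH1 by 0.05 (SE 0.063) and DNAJA1, a farnesylated partner of HSPA8, by 0.07 (SE 0.062). HSP90AA1, the inducible HSP90, was at 1950.2, 1853 and 1935 CPM against 1659, 1574 and 1866 CPM, with a change of 0.17 (SE 0.069, adjusted p 0.128 by edgeR's quasi-likelihood test). Without HCCLM3 the change of HSP90AA1 was 0.23 with an adjusted p of 0.0143 by the same test, in a fit that called 27.7% of all genes. DNAJB1, the main heat-inducible J protein, was at 165, 183 and 205 CPM against 149, 156 and 175 CPM, a change of 0.20 (SE 0.062, adjusted p 0.0605), and 0.0451 without HCCLM3. Of 9 heat-inducible cytosolic members tested 1 passed, HSPB1, a share near the 14.4% of all genes. The widely expressed J protein gene DNAJB6 changed by 0.10 (SE 0.080).

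Of 8 ER members tested 1 was called, DNAJC1, and of 6 mitochondrial members 0 were, where 14.4% of all genes were. These shares of few genes were not tested against that of all genes. HSPA5, or BiP, the main HSP70 of the ER, was at 507, 516 and 362 CPM after TGF-β1 in MHCC97L, MHCC97H and HCCLM3, against 462, 424 and 354 CPM in controls, a change of 0.15 (SE 0.070, adjusted p 0.189 by edgeR's quasi-likelihood test). Leaving out HCCLM3 gave an adjusted p of 0.0298 by that test, in a fit that called 27.7% of all genes. HSP90B1, or GRP94, changed by 0.12 (SE 0.063), DNAJB9 by 0.04 (SE 0.105), the PERK inhibitor gene DNAJC3 by -0.003 (SE 0.081) and HSPA13 by -0.20 (SE 0.114). Of the 6 mitochondrial members 0 were called by edgeR and 0 had an unadjusted p under 0.05, and their changes ran from -0.13 to 0.10. Among them HSPD1 and HSPE1, the mitochondrial chaperonin and its lid, changed by 0.004 (SE 0.062) and 0.10 (SE 0.089), and HSPA9, the HSP70 that pulls proteins into mitochondria, by -0.10 (SE 0.066).

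The inducible HSP70 genes HSPA1A and HSPA1B need a separate account. They lie side by side on chromosome 6 (GRCh38, HSPA1A at 31815464 to 31817946 and HSPA1B at 31827735 to 31830255, both on the plus strand) and encode nearly the same protein. Of the 50-base windows of HSPA1A transcripts, 71.3% also occur in HSPA1B. Of the 20-base windows in the 250 bases before the start of HSPA1B, 32.9% also occur before HSPA1A. The last 120 bases before each start are shown with the heat shock element in capitals. HSPA1A is at chr6:31815423-31815542, plus strand, and HSPA1B at chr6:31827618-31827737, plus strand.
HSPA1A: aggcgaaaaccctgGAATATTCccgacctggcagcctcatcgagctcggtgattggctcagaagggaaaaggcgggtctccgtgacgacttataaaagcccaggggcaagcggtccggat
HSPA1B: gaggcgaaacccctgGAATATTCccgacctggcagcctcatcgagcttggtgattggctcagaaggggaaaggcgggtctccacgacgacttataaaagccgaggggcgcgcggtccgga
HSPA1A had 0 counts in all 6 libraries, and counts of HSPA1B were not whole in any, so the value under HSPA1B may hold reads of both genes. HSPA1B was at 78.2, 139 and 45.1 CPM after TGF-β1 in MHCC97L, MHCC97H and HCCLM3, against 78.5, 144 and 104 CPM in controls. Levels stayed close in the first 2 lines and were lower with TGF-β1 in HCCLM3. Within HCCLM3 the log2 difference was -1.21 (95% counting interval -1.32 to -1.10), against -0.01 in MHCC97L and -0.05 in MHCC97H. Over the lines the change was -0.41 (SE 0.348, adjusted p 0.536 by edgeR's quasi-likelihood test), and the difference between lines cannot be tested with 1 library per line and condition. The strictly heat-inducible HSPA6 changed by 0.03 (SE 0.159).

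**Figure D3:**
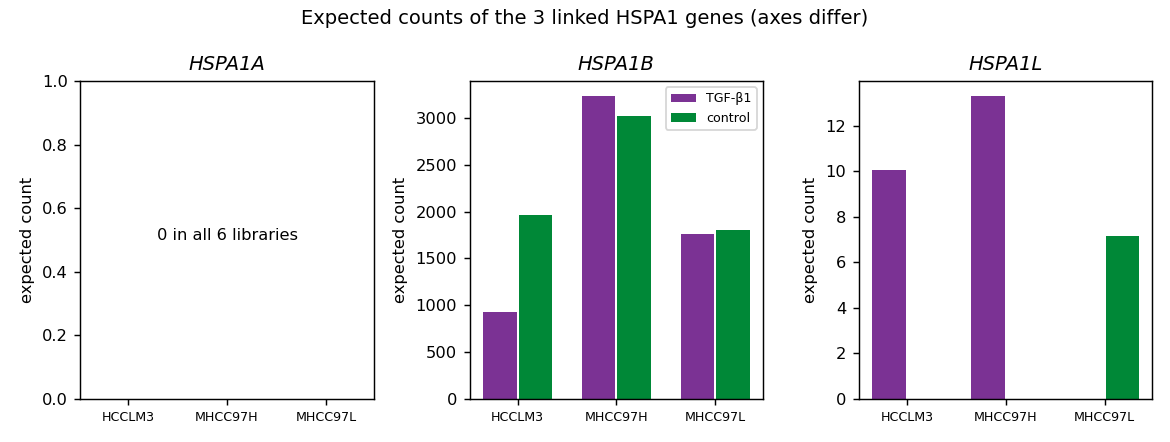
Expected counts of HSPA1A, HSPA1B and HSPA1L in each library, TGF-β1 bars left of control bars for each cell line, with a separate axis per gene. HSPA1A is at 0 throughout, and HSPA1B has 931 counts with TGF-β1 in HCCLM3 against 1964 in its control.

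Within each line, members were also counted at 2-fold or more where a library had 5 CPM or more, as values of single libraries with no test. In MHCC97L 1 of 51 members passed this limit, a higher one, where 1.68% of all genes did (1.27% higher, 0.407% lower). In MHCC97H it was 1 of 51, also higher, against 2.44% of all genes (1.79% higher, 0.648% lower). In HCCLM3 it was 2 of 53, 1 in each direction, against 1.79% of all genes (1.31% higher, 0.479% lower). DNAJC22 was the member in the first 2 lines, at 2.03-fold higher in each, and it was 1.91-fold higher in HCCLM3. In HCCLM3 they were DNAJB5, higher, and HSPA1B, lower. HSPB7, under the level limit, was higher by 1.96 on the log2 scale in MHCC97L (95% counting interval 0.86 to 4.43), by 1.88 in MHCC97H (0.83 to 3.97) and by 2.18 in HCCLM3 (1.49 to 3.26). The intervals overlap widely.

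The next question was how the lines differ, with both conditions of each line in the fit. HCCLM3 stood apart from MHCC97L and MHCC97H, which resembled each other. Against MHCC97L, 14 of 62 members were called in HCCLM3, 8 higher and 6 lower, where 29.8% of all genes were called (15% higher, 14.8% lower). Against MHCC97H it was 16 of 62, 8 in each direction, where 27.2% of all genes were called (13.3% higher, 13.9% lower). In MHCC97H against MHCC97L 1 of 62 was called, a lower one, where 2.45% of all genes were (1.37% higher, 1.08% lower). These shares were not tested against each other. The count against MHCC97L was 7 without the control of MHCC97L and 6 without its TGF-β1 library. Against MHCC97H it was 10 without either library of MHCC97L, 6 without the TGF-β1 library of MHCC97H and 9 by DESeq2. Against MHCC97H, 21.0% and 21.5% of all genes were called without the control or TGF-β1 library of MHCC97L, and 19.9% by DESeq2. In the other fits named here the share of all genes was also lower than with all libraries. The comparisons share libraries, so their values are given side by side.

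Of the 7 members that rose with TGF-β1, 4 were also called higher in HCCLM3 against both other lines, in the same 6 libraries. Of all genes, 15% were called higher against MHCC97L and 13.3% against MHCC97H. The share higher against both was not counted, over all genes or over those that rose. A link between response and line level was therefore not tested. DNAJB2 was higher in HCCLM3 by 1.04 against MHCC97L (SE 0.089, adjusted p 5.56e-05) and by 0.99 against MHCC97H (SE 0.089, adjusted p 8.01e-05, both by edgeR's quasi-likelihood test). For HSPB8 the values were 0.62 (SE 0.086) and 0.75 (SE 0.086), for HSPB7 2.0 (SE 0.332) and 1.71 (SE 0.318), and for DNAJB5 1.33 (SE 0.213) and 1.13 (SE 0.209). All 8 values passed. The other 3 did not pass in either comparison: DNAJC22 was at -0.13 and -0.19, HSPB1 at 0.20 and 0.20, and DNAJC1 at 0.09 and 0.21. Leaving out 1 library ended some of these calls by edgeR: against MHCC97H the adjusted p of HSPB7 was 0.224 without the TGF-β1 library of MHCC97H and 0.120 without that of HCCLM3, and that of DNAJB5 was 0.0583 and 0.0528. Against MHCC97L that of HSPB7 was 0.129 without the TGF-β1 library of MHCC97L and 0.0639 without that of HCCLM3. DESeq2 gave 0.0917 for HSPB7 against MHCC97H.

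HSPB6, known as HSP20 and abundant in muscle, showed the largest line difference. It was at 11.5 and 9.88 CPM in HCCLM3 (TGF-β1, then control), against 1.33 and 2.05 CPM in MHCC97H and 1.20 and 1.39 CPM in MHCC97L. No library of the other lines came near HCCLM3, and the differences were 3.04 against MHCC97L (SE 0.234, adjusted p 3.08e-05) and 2.67 against MHCC97H (SE 0.225, adjusted p 6.01e-05, edgeR's quasi-likelihood test). DNAJC12, a co-chaperone of phenylalanine hydroxylase and its relatives, was at 9.10 and 6.69 CPM in HCCLM3, against 2.83 and 2.14 CPM in MHCC97H and 2.40 and 1.39 CPM in MHCC97L. It was higher by 2.06 (SE 0.194) and 1.66 (SE 0.186), and both passed. HSPD1 was 0.46 (SE 0.077) and 0.41 (SE 0.076) higher in HCCLM3, and both passed. DNAJB1 was 0.27 (SE 0.076) higher against MHCC97L, and its difference of 0.17 (SE 0.076) against MHCC97H did not pass. DNAJC4 was 0.51 higher against MHCC97H.

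Of the 8 ER members, 1 was lower in HCCLM3 against MHCC97L and 3 against MHCC97H, where 14.8% and 13.9% of all genes were, while HSPA13 stood at 0.23 and 0.28 and did not pass. HSPA5 was at 362 and 354 CPM in HCCLM3 (TGF-β1, then control), against 516 and 424 CPM in MHCC97H and 507 and 462 CPM in MHCC97L, a difference of -0.39 against MHCC97H (SE 0.086, adjusted p 0.0101) and -0.44 against MHCC97L (SE 0.086, adjusted p 0.00514, edgeR's quasi-likelihood test). HSP90B1 and DNAJC3 were also lower against MHCC97H, with differences of -0.31 (SE 0.077) and -0.34 (SE 0.100), and at -0.23 and -0.19 against MHCC97L did not pass. DNAJC17, tied to splicing, was lower, at -0.71 against MHCC97H (SE 0.134) and -0.79 against MHCC97L (SE 0.133), but it overlaps GCHFR and ZFYVE19 on the opposite strand. HSPA6 was lower at -0.68 (SE 0.204) and -0.73 (SE 0.202), and DNAJC27, a Rab-like GTPase with a J domain, at -1.20 (SE 0.370) and -1.47 (SE 0.355), in the same order. DNAJB4 was lower against MHCC97L (-0.39), and HSPB9 (-1.17) and the mitochondrial inner membrane gene DNAJC15 (-0.42) against MHCC97H. The calls of HSPA6, DNAJC27, HSPB9 and DNAJC15 rest on few counts or small differences. Against MHCC97H each was lost without any of 5 of the 6 libraries, with an adjusted p of up to 0.219 for HSPA6, 0.201 for DNAJC27, 0.355 for HSPB9 and 0.211 for DNAJC15 by edgeR, and of 0.285, 0.258, 0.323 and 0.249 by DESeq2. Against MHCC97L the call of HSPA5 was lost without the control of MHCC97L (0.124) or its TGF-β1 library (0.0963), and those of HSPA6 and DNAJC27 were lost without 3 libraries each, with an adjusted p of up to 0.202 and 0.0932, and by DESeq2 (0.221 and 0.122).

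DNAJC6 had its own pattern, with MHCC97L above the other lines. It was at 2.91 and 4.09 CPM in HCCLM3, 2.45 and 4.00 CPM in MHCC97H and 5.11 and 7.57 CPM in MHCC97L (TGF-β1, then control in each). The difference was -0.85 for HCCLM3 against MHCC97L (SE 0.174, adjusted p 0.00603) and -0.98 for MHCC97H against MHCC97L (SE 0.173, adjusted p 0.0249, edgeR's quasi-likelihood test). Without a control or TGF-β1 library of MHCC97L or MHCC97H the second call was lost, with an adjusted p of 0.0814 to 0.251, and without either library of MHCC97L the first was, with 0.0690 and 0.0590. DESeq2 gave 0.0796 for the first and 0.174 for the second.

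**Figure D4:**
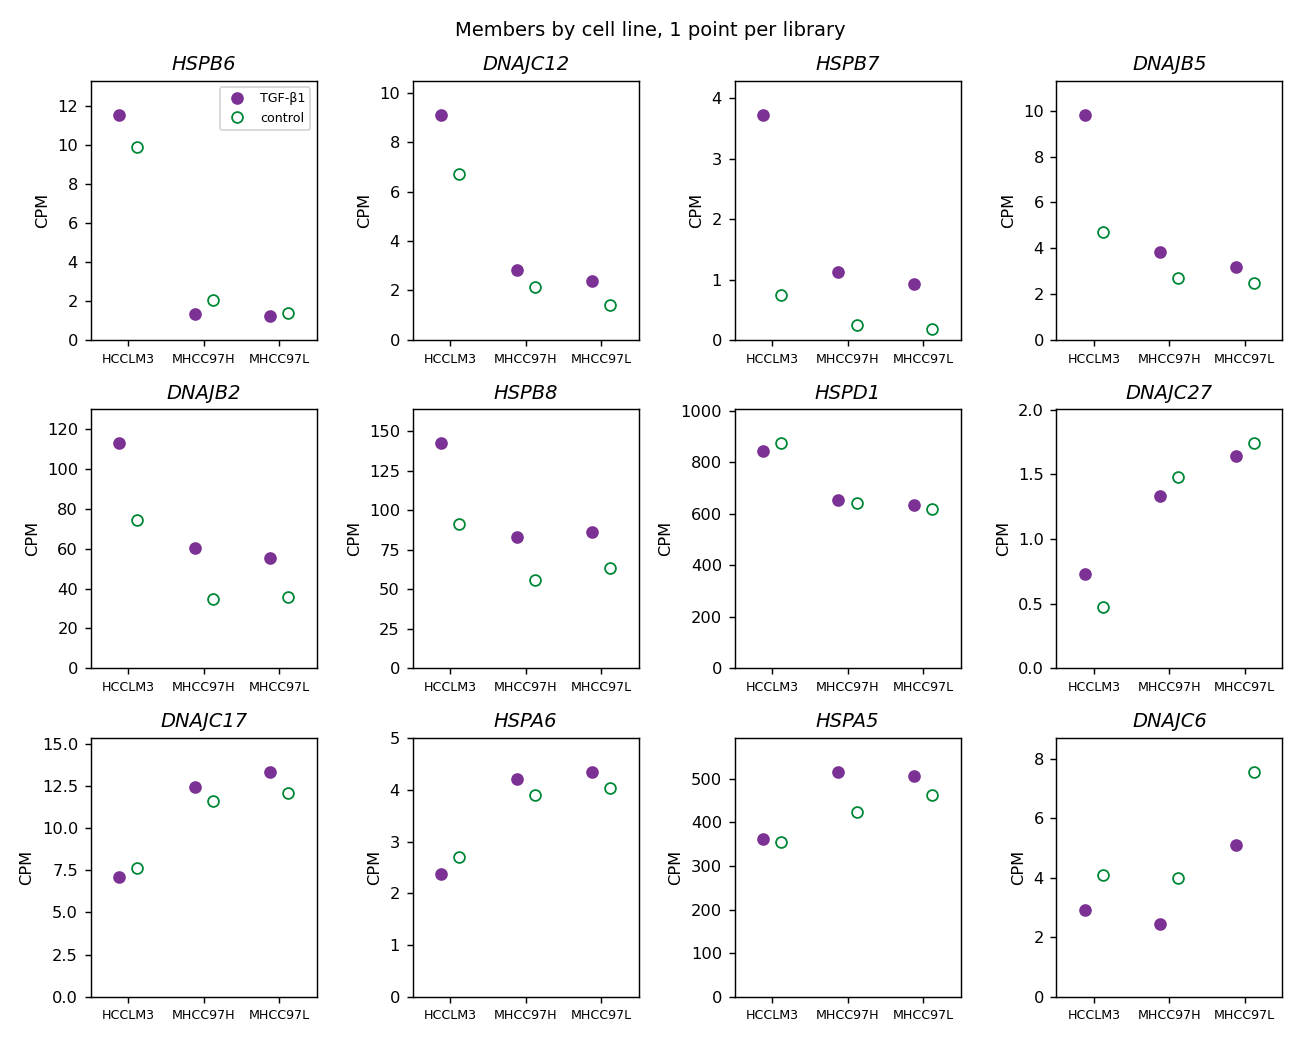
CPM of 12 members in each library, by cell line, with TGF-β1 (filled) left of control (open). HSPB6, DNAJC12, HSPB7, DNAJB5, DNAJB2, HSPB8 and HSPD1 are higher in HCCLM3, DNAJC27, DNAJC17, HSPA6 and HSPA5 are lower there, and DNAJC6 is highest in MHCC97L at 5.11 and 7.57 CPM.

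Many counts were not whole numbers. They were whole in all 6 libraries for 36 of 72 members (50%), against 56.9% of all genes, with genes at 0 counted as whole in both. The 36 include DNAJB8, HSPA1A and HSPB2, at 0 in all libraries. Of all genes above 0 in some library, 48.8% were whole in all 6. The like share of members above 0 is not given, and whether members stand apart was not tested. By family, counts were whole in all 6 libraries for 6 of 7 small heat shock proteins, 8 of 12 HSP70 genes and 10 of 29 class C J proteins. HSPB9, the exception among the small heat shock proteins, was whole in 1 library. Members were then compared with the GENCODE 29 transcripts of the other genes in the files, in windows of 50 bases on either strand. Of the 36 members with counts that were not whole, 30 shared a window with another gene, with a median of 2.58% of their windows. Of the 36 with whole counts, 10 did. DNAJC25-GNG10, a read-through gene, shared 93.4% of its windows, DNAJC14 43.4% and DNAJC11 25.8%, the last all with THAP3. The mitochondrial pair HSPD1 and HSPE1 face away from each other and shared 5.14% and 17.9% of their windows, in part with each other. Whole counts in HSPA1A and HSPB2 are zeros. Of the 9 members called for TGF-β1, 8 had whole counts and DNAJC22 did not.

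**Figure D5:**
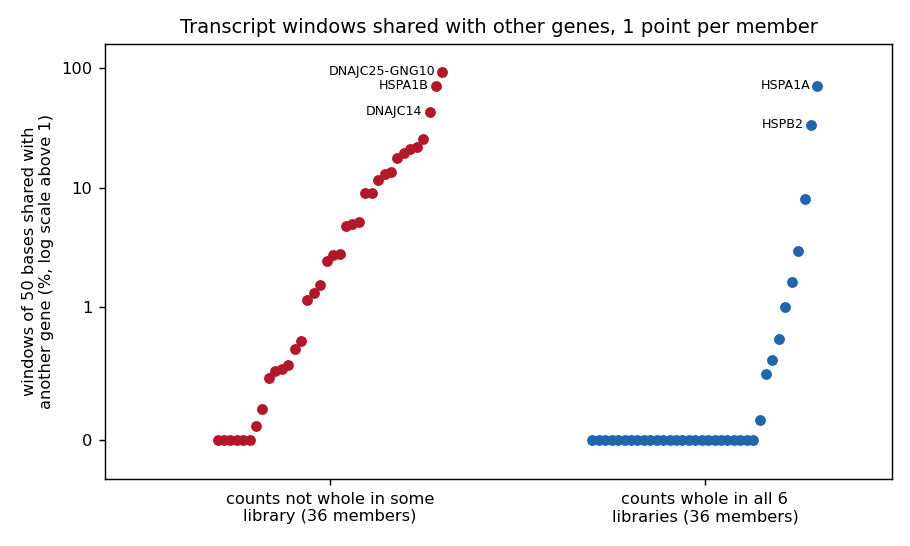
Share of each member's transcript windows of 50 bases that occur in another gene of the files, by whether its counts were whole, on an axis that is linear up to 1% and logarithmic above. Of the members with counts that were not whole, 30 of 36 lie above 0, and of those with whole counts 10 of 36 do, HSPA1A and HSPB2 with zeros only.

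Other genes of the chaperone system came from a list of 58, of which 57 were tested. It holds heat shock factors, exchange factors, HSP90 co-chaperones, mitochondrial, chaperonin, prefoldin and folding genes, other J proteins, CRYAA and CRYAB. After TGF-β1, 4 rose, where 7.78% of all genes did, and 1 fell, where 6.64% did, with a median of 0.07. STUB1, the ubiquitin ligase CHIP that marks HSP70 and HSP90 clients, rose by 0.28 (SE 0.069) and the exchange factor HSPBP1 by 0.32 (SE 0.078). The prefoldin subunit PFDN4 rose by 0.39 (SE 0.103) and SDF2L1, a partner of HSPA5, by 0.33 (SE 0.094). FKBP5, a co-chaperone of steroid receptors, fell by 0.42 on the log2 scale (SE 0.077). HSF1 was at 190.1 CPM on average after TGF-β1 and 170.4 CPM in controls (change 0.16, SE 0.068) and HSF2 at 5.84 and 7.97 CPM (-0.44, SE 0.130), and neither passed. BAG3, the partner of HSPB8, changed by 0.20 (SE 0.068) and did not pass.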

How the data were processed

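RNA was measured by sequencing in 6 libraries of 3 cell lines. The authors deposited expected counts per gene, 1 table per library, which need not be whole. Per the submitters' processing notes, Cuffdiff 1.3.0, Cufflinks 2.2.1, TopHat2 2.1.1 and the build hg38 were used. The tool that made the counts, its use of strand and its handling of reads shared by several genes are not given in the sources used here.

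Counts were rounded to whole numbers, which changed no library total by more than 101 counts. Genes passed filterByExpr on treatment, were scaled by TMM and tested with edgeR 4.0.16 (quasi-likelihood, robust) in R 4.3.3, with cell line and treatment as terms, 2 residual degrees of freedom and Benjamini-Hochberg adjustment at 0.05. DESeq2 1.42.0, limma-voom (limma 3.58.1), other scalings, no filter, non-robust dispersion, rounding down, no block and leaving out lines or libraries were alternatives. The pairing comes from the labels' cell lines: deviations from condition means correlated across genes at 0.587, 0.456 and 0.728 for MHCC97L, MHCC97H and HCCLM3. Within a line, log2 differences used a prior count of 2, with 95% exact binomial intervals. A count of 0 allows up to 3 counts, 0.129 to 0.159 CPM by TMM library sizes. Intervals and floors cover counting error alone, as each line has 1 library per condition. Intervals took rounded expected counts as counted reads, and reads had no molecular identifiers.

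Member symbols came from a reference table of gene names, coordinates, exon lengths and overlaps from GENCODE 29 on GRCh38, and promoters from RefSeq. Each member was taken by its symbol, under a rule set, like the lists, with earlier results of these data known. Named members were a fixed set of well-known chaperones, up to 12 called in each direction for TGF-β1, the 5 largest in each direction for each line comparison at a mean of 1 CPM or more, and those at 2-fold within a line or at 0 in some libraries. Other members, among them most of those named for CPM without overlap, were named after their values were seen, and so was the AP-1 site. The fitting code was tested on simulated data.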

Additional observations from a re-analysis of the deposited data

Results flagged for a closer look

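HSPA1L, a testis-enriched HSP70 that shares 2.44% of its transcript windows with HSPA1A and HSPA1B, went opposite ways between lines. With a prior count of 2 its log2 difference was -2.18 in MHCC97L, but 2.87 in MHCC97H and 2.54 for HCCLM3. The counts behind these were 0 with TGF-β1 and 7.16 in the control of MHCC97L, 13.31 and 0 in MHCC97H, and 10.05 and 0 in HCCLM3. Set against 3 counts in the library at 0, HSPA1L was 2.34-fold lower with TGF-β1 in MHCC97L, 4.00-fold higher in MHCC97H and 3.05-fold higher in HCCLM3. The other count was taken as exact, without its counting error, so these values are not lower limits. The difference between lines was not tested, since each line has 1 library per condition. In all 3 libraries above 0 the counts were not whole, while HSPA1B, beside it on chromosome 6, held 931 to 3234 counts per library.

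IFT25, listed in GENCODE 29 under the older name HSPB11, is not a heat shock gene by its current symbol and was left out. It had 421, 357 and 267 expected counts after TGF-β1 in MHCC97L, MHCC97H and HCCLM3, against 314, 277 and 232 in controls, none of them whole.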

How the results depend on the processing

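Over the values of named members under the alternatives, 580 kept their direction and side of the threshold, 87 lost a call, 3 gained one and 28 changed sign. DNAJC22 passed under all 12 alternatives. Members called for TGF-β1 numbered 9 as reported and 5 by DESeq2, where 14.4% and 11.1% of all genes were called. They numbered 4 without MHCC97L, 5 without MHCC97H and 15 without HCCLM3, where 4.29%, 6.85% and 27.7% of all genes were. DESeq2 gave no adjusted p for HSPB7. Called in HCCLM3 against MHCC97L were 14 members, and 6 to 19 without 1 library, and against MHCC97H 16, with 9 by DESeq2 and 6 to 18 without 1 library. Between MHCC97H and MHCC97L it was 1, with 0 by DESeq2 (unadjusted p under 0.05 in 4 by edgeR) and 0 to 2 without 1 library. Where a line kept 1 library, that library is assumed to vary like the others. The share of all genes called also differed between these fits. Without the pairing, that is with no replicate block, 1 member was called for TGF-β1 (DNAJC22), where 0.0705% of all genes were. In the line comparisons it was 5 and 4 for HCCLM3 against MHCC97L and MHCC97H, and 0 between MHCC97H and MHCC97L. Of all genes 12.6%, 10.2% and 0.0141% were called there.

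Signs changed only in members near 0 that no fit called, and the cause was not tested. By library totals HSP90AB1 changed by -0.0191, HSPD1 by -0.0471, HSPH1 by -0.00296, DNAJB9 by -0.0112, DNAJC27 by -0.0418 and HSPA6 by -0.0160. By upper quartiles HSPD1 changed by -0.0276 and DNAJC27 by -0.0290, and with no block HSPD1 by -0.00201, HSPB6 by 0.0891 and DNAJC27 by -0.0191. With no filter DNAJC3 changed by 0.000140 and DNAJC27 by -0.000183, by DESeq2 DNAJC3 by 0.000206 and by limma-voom HSPB6 by 0.0323. When a line was left out, the change of HSPD1 ran from -0.0113 to 0.0259, HSPE1 from -0.0269 to 0.214, DNAJB9 from -0.00673 to 0.118, DNAJC3 from -0.0215 to 0.00806, HSPB6 from -0.440 to 0.136, DNAJC27 from -0.116 to 0.0914, HSPA6 from -0.0184 to 0.103 and DNAJC15 from -0.139 to 0.00748. Adding HSPA1A to HSPA1B could not change its counts, as HSPA1A had 0 in all 6 libraries. Adding HSPA1L as well brought at most 13.31 counts in a library, against 931 to 3234 for HSPA1B. These alternatives, chosen in part after seeing the data, left HSPA1B without a call. They could hardly have come out otherwise, so they do not test its stability, though they are among the 580 values above.

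Depth limits members such as HSPB3, HSPB9 and DNAJB7, under 2 CPM in every library. With 1 library per line and condition, responses of single lines cannot be tested.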
